A study of Mus musculus with 24 samples.

Results

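The cytosolic heat shock and small heat shock genes were examined in cultured mouse lung adenocarcinoma cells. The set holds 10 genes of the 38937 listed in the shRNA table and the 39310 listed in the siRNA table, and all 10 were listed in both. They are the transcription factor gene Hsf1, the small heat shock protein genes Hspb1, Hspb8 and Cryab, the co-chaperone gene Bag3, the HSP70 genes Hspa1a and Hspa1b, the HSP40 gene Dnajb1, the HSP110 gene Hsph1 and the HSP90 gene Hsp90aa1. The members were chosen by symbol, by a rule that uses no expression value, but after results of these data were known. The tests below come from models fitted to all genes of a table, and they describe these libraries without being independent of that choice.

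Tumour cells positive for GFP and negative for the leukocyte marker CD45 were sorted from lung and grown in culture, per the labels. The genotypes are named eIF2αS/S and eIF2αA/A, where S/S keeps the serine of the translation initiation factor eIF2α that stress kinases phosphorylate and A/A carries alanine there. The genotype field of the A/A siControl samples reads WT while their titles name eIF2αA/A, and the titles were followed, so every A/A siControl value and each contrast with that group rests on the titles. The shRNA table holds S/S cells with a scrambled shRNA (S/S shControl) and S/S cells with an shRNA against Atf4 (S/S shAtf4). The siRNA table holds S/S and A/A cells, each with a control siRNA (siControl) or an siRNA against Chchd10 (siChchd10), a gene of a small mitochondrial protein. Each of the 6 groups has 4 libraries. No label used here states whether replicates are separate cultures, or how many lines or clones stand for a genotype. Genotype and line therefore cannot be told apart, and p-values measure only the spread between these libraries.

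In the siRNA table, Chchd10 was at a mean of 42.6 CPM (counts per 1e6 counts of a library) in S/S siControl and 6.30 in S/S siChchd10, and at 8.93 in A/A siControl and 1.83 in A/A siChchd10. Atf4 was at 679 CPM in S/S shControl and 271 in S/S shAtf4, so both targets were lower where the labels place the knockdown. In units of 1e6 counts, library totals ran from 14.1 to 70.9 in the shRNA table and from 42.9 to 75.4 in the siRNA table. The epithelial keratin Krt8 averaged 1069 to 2247 CPM in the 6 groups. The lung lineage factor Nkx2-1 had no count in any of the 8 shRNA libraries but averaged 35.1 to 131 CPM in the siRNA groups, and the alveolar type 2 marker Sftpc reached 3.80 CPM in A/A siChchd10 and at most 0.0912 elsewhere. The S/S cells of the 2 tables thus differed in lineage markers, and no test was made across tables.

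In the heat shock response, unfolded proteins draw chaperones away from the factor HSF1, which then forms trimers and binds repeats of the letters GAA and TTC upstream of chaperone genes. Small heat shock proteins such as HSPB1, HSPB8 and αB-crystallin (Cryab) hold unfolded proteins in assemblies without using ATP. HSP70 then folds such clients in a cycle driven by ATP, with HSP40 proteins delivering clients and stimulating hydrolysis, HSP110 exchanging the nucleotide, and HSP90 acting late on kinases and receptors. BAG3 bridges HSP70 to HSPB8 and directs clients to autophagy. HSF1 is controlled largely as a protein, so its RNA level is not a measure of its activity.

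The stretches upstream of 3 members are printed here because they hold the inverted repeats TTCNNGAA or GAANNTTC, the core letters of a heat shock element. RefSeq promoter sequences (GRCm38.p6) matched 7 of the 10 members, with no sequence used for Cryab, Hsp90aa1 or Hsf1. Each line gives the 150 bases before the annotated start, 5′ to 3′ on the strand of the gene, and capitals mark the repeat. Hspb1 lies at chr5:135887769-135887918 on the plus strand, Hspa1b at chr17:34959239-34959388 and Hspa1a at chr17:34972157-34972306, both on the minus strand.
Hspb1: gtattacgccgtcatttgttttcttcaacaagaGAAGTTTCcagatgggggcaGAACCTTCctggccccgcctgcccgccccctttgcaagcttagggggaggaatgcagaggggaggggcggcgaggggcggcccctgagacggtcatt
Hspa1b: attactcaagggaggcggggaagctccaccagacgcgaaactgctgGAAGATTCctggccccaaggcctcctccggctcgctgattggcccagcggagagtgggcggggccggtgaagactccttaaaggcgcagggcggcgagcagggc
Hspa1a: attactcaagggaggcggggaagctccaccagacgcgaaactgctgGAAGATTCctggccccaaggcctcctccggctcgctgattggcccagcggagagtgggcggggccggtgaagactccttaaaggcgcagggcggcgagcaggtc

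Hspb1 held 2 such repeats, 117 and 97 bases before the start. Hspa1a and Hspa1b each held 1, at 104 bases, and their 250 upstream bases were identical at 247 positions. Hsph1 held TTCTCGAA 33 bases before an annotated start, and no repeat of either kind was in the 250 bases of Hspb8, Bag3 or Dnajb1. Thus 4 of the 7 matched members held a repeat, beside 14.5% of 27075 genes with a promoter sequence. Both repeats read the same on either strand. Over single promoters of that length, TTCNNGAA was in 7.17% and GAANNTTC in 6.69% of 32851. The element bound by ATF4 with a C/EBP partner, TGATGCAA on either strand, was in none of the 7 and in 0.791% of all promoters. These matches describe letters only.

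The copies of some members limit what their counts can say. Words of 75 bases were taken from the longest annotated transcript of each member. Hspa1a (GRCm38 17:34969190-34972156) and Hspa1b (17:34956436-34959238), near-identical genes for inducible HSP70, shared 52.7% and 55.8% of these words with each other. Counting every gene, 61.7% of the Hspa1a words occurred in 4 others. Hspb1 (5:135887919-135889563) shared 47.3% of its words with the pseudogene Hsp25-ps1, which averaged at most 0.965 CPM in any group. Hsp90aa1 (12:110690605-110702728) shared 45.0% with Gm12346, which averaged 8.63 to 35.4 CPM. Cryab (9:50751325-50756636) overlaps Hspb2 on the opposite strand over 17.0% of its exonic bases. Hspa1a likewise overlaps the protein-coding gene Gm20481 on the opposite strand, over 19.0% of its exonic bases. The strand setting of the counting is not given in the sources used here, and the part of these overlaps in the counts was not tested. No 75-base word from the longest transcript of Hspb8 (5:116408491-116422864), Bag3 (7:128523616-128546981), Dnajb1 (8:83608193-83612653), Hsph1 (5:149614287-149636376) or Hsf1 (15:76477422-76501913) was shared with another gene.

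Levels were ordered within a group as CPM per kb of annotated exon, so that long and short genes can be compared. Hsp90aa1 was the most abundant member in all 6 groups, for example 382 CPM per kb in S/S shControl, 673 in S/S siControl and 477 in A/A siControl. What followed it differed between the groups. In S/S shControl, Hspb1 came next at 169 CPM per kb, then Hsph1 at 62.0, Dnajb1 at 19.5, Hsf1 at 18.9, Bag3 at 15.2, Cryab at 13.6, Hspa1b at 1.95, Hspb8 at 0.168 and Hspa1a at 0.0392. The ranges of Dnajb1 and Hsf1 overlapped there, as did those of Bag3 and Cryab.

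In S/S siControl the order was Hsph1 at 82.9 CPM per kb, Dnajb1 at 30.6, Bag3 at 14.2, Hsf1 at 11.4, Cryab at 9.27, Hspa1b at 7.71, Hspb8 at 3.02, Hspb1 at 2.09 and Hspa1a at 0.500. Hspb1 thus stood second among the members in one S/S control and ninth in the other, and the ranges of Cryab and Hspa1b overlapped. In A/A siControl the order was Hsph1 at 89.6, Hspb1 at 33.2, Dnajb1 at 29.6, Bag3 at 14.0, Hsf1 at 11.6, Hspa1b at 5.55, Cryab at 1.33, Hspa1a at 0.376 and Hspb8 at 0.0445 CPM per kb. There Hspb1 and Dnajb1 overlapped, and Hspb8 was last. A ratio within 1 library does not depend on scaling: Hspb1 counts per Hsf1 count were 1.16 to 1.47 in S/S shControl, 0.0224 to 0.0329 in S/S siControl and 0.387 to 0.431 in A/A siControl.

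**Figure D1:**
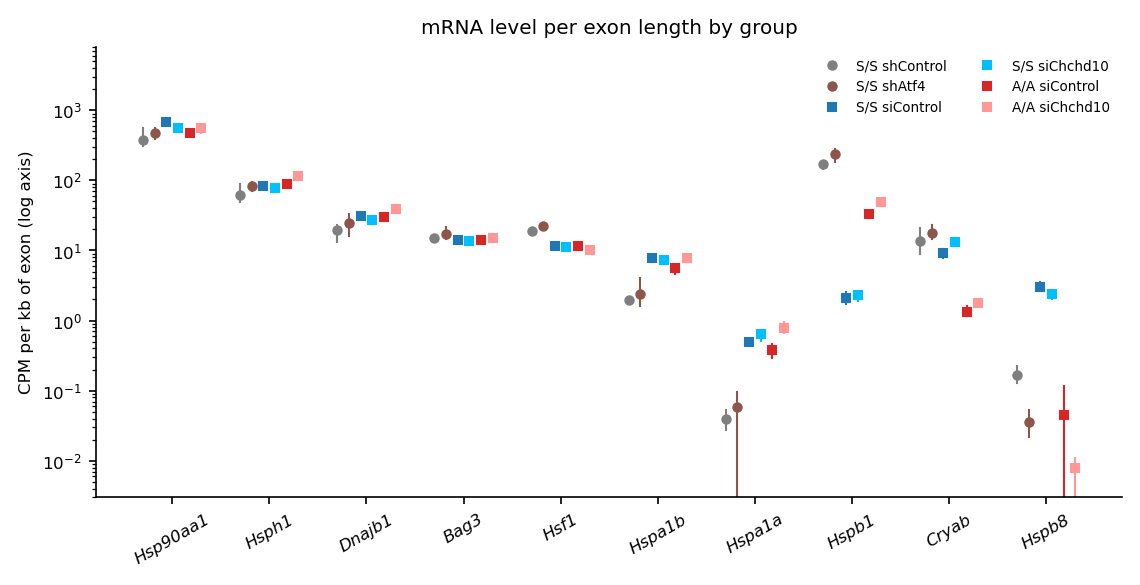
Level of each of the 10 members in each of the 6 groups, in CPM per kb of annotated exon on a log axis; points are means of 4 libraries and lines run from the lowest to the highest library (a line reaching the bottom has a library at 0). Hsp90aa1 is highest in every group, and Hspb1 moves from 169 in S/S shControl to 2.09 in S/S siControl.

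The small heat shock genes separated A/A from S/S cells in opposite directions. With control siRNA, Hspb1 was 15.9-fold higher in A/A cells, whereas Cryab was 6.97-fold lower and Hspb8 nearly absent. In this comparison 2 of 10 members were called higher and 5 lower, against 35.6% of the 18138 genes tested that were called higher and 34.7% called lower (70.2% in either direction). A call means a Benjamini-Hochberg adjusted p under 0.05 in edgeR's quasi-likelihood test over all genes of the table. With most genes called, the count of members is not set apart from the background, and the sizes of the differences carry the description. Differences of 2-fold or more were themselves common, in 21.8% of all genes tested.

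Hspb1, whose product binds unfolded proteins and actin, was at 1.77, 2.31, 2.64 and 1.88 CPM in the S/S siControl libraries. In A/A siControl it was at 34.7, 35.1, 35.3 and 31.7 CPM. The groups lay far apart, with a log2 difference of 3.97 ± 0.08 (SE, edgeR adjusted p = 2.86e-25). SE of a log2 difference is here its absolute value divided by the square root of edgeR's F statistic. Cryab, which encodes αB-crystallin, ran the other way, at 15.4, 12.6, 11.6 and 15.3 CPM in S/S siControl. In A/A siControl Cryab was at 2.40, 1.94, 1.74 and 1.80 CPM, a log2 difference of -2.79 ± 0.11 (edgeR adjusted p = 4.06e-19). No A/A library reached the lowest S/S library.

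Hspb8, the small heat shock protein that works with BAG3, was at 5.58, 5.57, 5.36 and 7.04 CPM in S/S siControl. In A/A siControl it was at 0.227, 0.0791, 0.0409 and 0 CPM, or 18 counts in all against 1149. The S/S count was 64.9-fold higher per library size, with an exact 95% interval of 40.9 to 110 that covers counting error only. The edgeR log2 difference was -5.99 ± 0.27 (adjusted p = 5.15e-17), and -7.08 without A/A siControl replicate 1. Leaving out that 1 library moved the value by more than its SE, so the SE is not a full measure of the uncertainty. That library stood apart: 4 RNAs, chosen after their values were seen for being at 20 CPM or more in every S/S siRNA library and at 0.1 or less in every A/A siChchd10 library, were there at 6.29% of their S/S siControl level. In A/A siControl replicates 2, 3 and 4 the same RNAs were at 0.933%, 0% and 0.0410%, and Hspb8 was at 3.86%, 1.34%, 0.694% and 0% of its S/S level in replicates 1 to 4. Whether S/S RNA contributes to these counts was not tested.

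**Figure D2:**
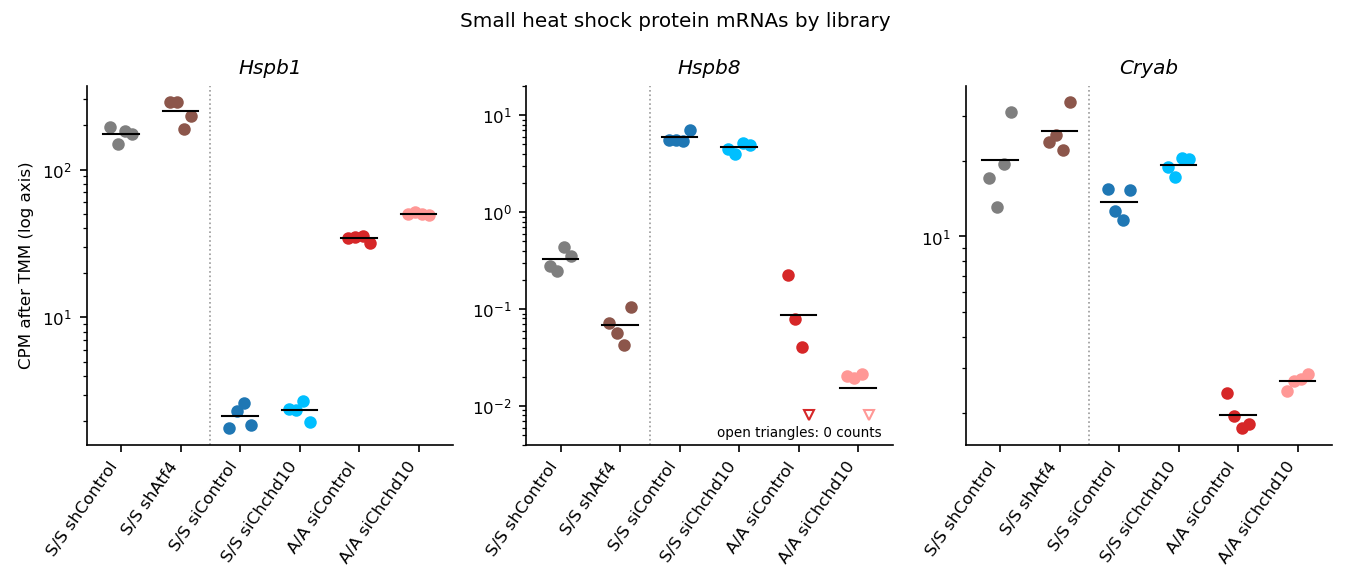
Hspb1, Hspb8 and Cryab in CPM on a log axis, 1 point per library (4 per group) and a bar at each group mean; a dotted line separates the shRNA and siRNA tables, which were scaled separately, and open triangles mark libraries with 0 counts. Hspb1 exceeds Hspb8 in the A/A cells and in the S/S cells of the shRNA table, and Hspb8 exceeds Hspb1 in the S/S cells of the siRNA table.

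The 2 S/S controls also differed in these genes, although their tables were normalised separately and carry no test. In S/S shControl, Hspb1 was at 193, 148, 182 and 173 CPM and Hspb8 at 0.275, 0.249, 0.440 and 0.351 CPM. Those S/S cells therefore had high Hspb1 with low Hspb8, as A/A siControl had, while Cryab was at 17.0, 13.1, 19.3 and 31.1 CPM, within or above the range of S/S siControl. Vector, table and cell line cannot be told apart in this contrast.

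The other members differed less between A/A and S/S cells with control siRNA. Hsp90aa1, the stress-responsive cytosolic HSP90, was at 2815, 2479, 2606 and 2689 CPM in S/S siControl and at 2045, 1826, 1859 and 1773 CPM in A/A siControl. The ranges did not overlap, and the log2 difference was -0.50 ± 0.07 (edgeR adjusted p = 2.36e-07). Hspa1b was at 21.0, 19.4, 21.4 and 24.6 CPM in S/S siControl and at 16.3, 15.9, 16.9 and 13.1 CPM in A/A siControl, also without overlap (log2 difference -0.47 ± 0.07, edgeR adjusted p = 2.14e-06). Summed with Hspa1a the difference was again -0.47. The RNAs without polyA tails summed to 2.15 to 4.23 CPM in S/S siControl and 4.16 to 7.92 in A/A siControl, with 2 of 5 called higher and 0 lower (median 0.70), and their part in these differences was not tested.

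Hspa1a alone differed by -0.40 (edgeR adjusted p = 0.0366) and lost the call in 5 of 8 fits that left out 1 library. Hsph1 was called higher by 0.11 (edgeR adjusted p = 0.0434), a call also lost in 5 of 8 such fits and in other settings given at the end. Hsf1, Bag3 and Dnajb1 were not called, at log2 differences of 0.03 (edgeR adjusted p = 0.528), -0.02 (0.826) and -0.05 (0.442). Of the members outside the small heat shock genes, Hsp90aa1 and Hspa1b were thus lower in A/A cells, by less than the many-fold differences of Hspb1, Hspb8 and Cryab.

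**Figure D3:**
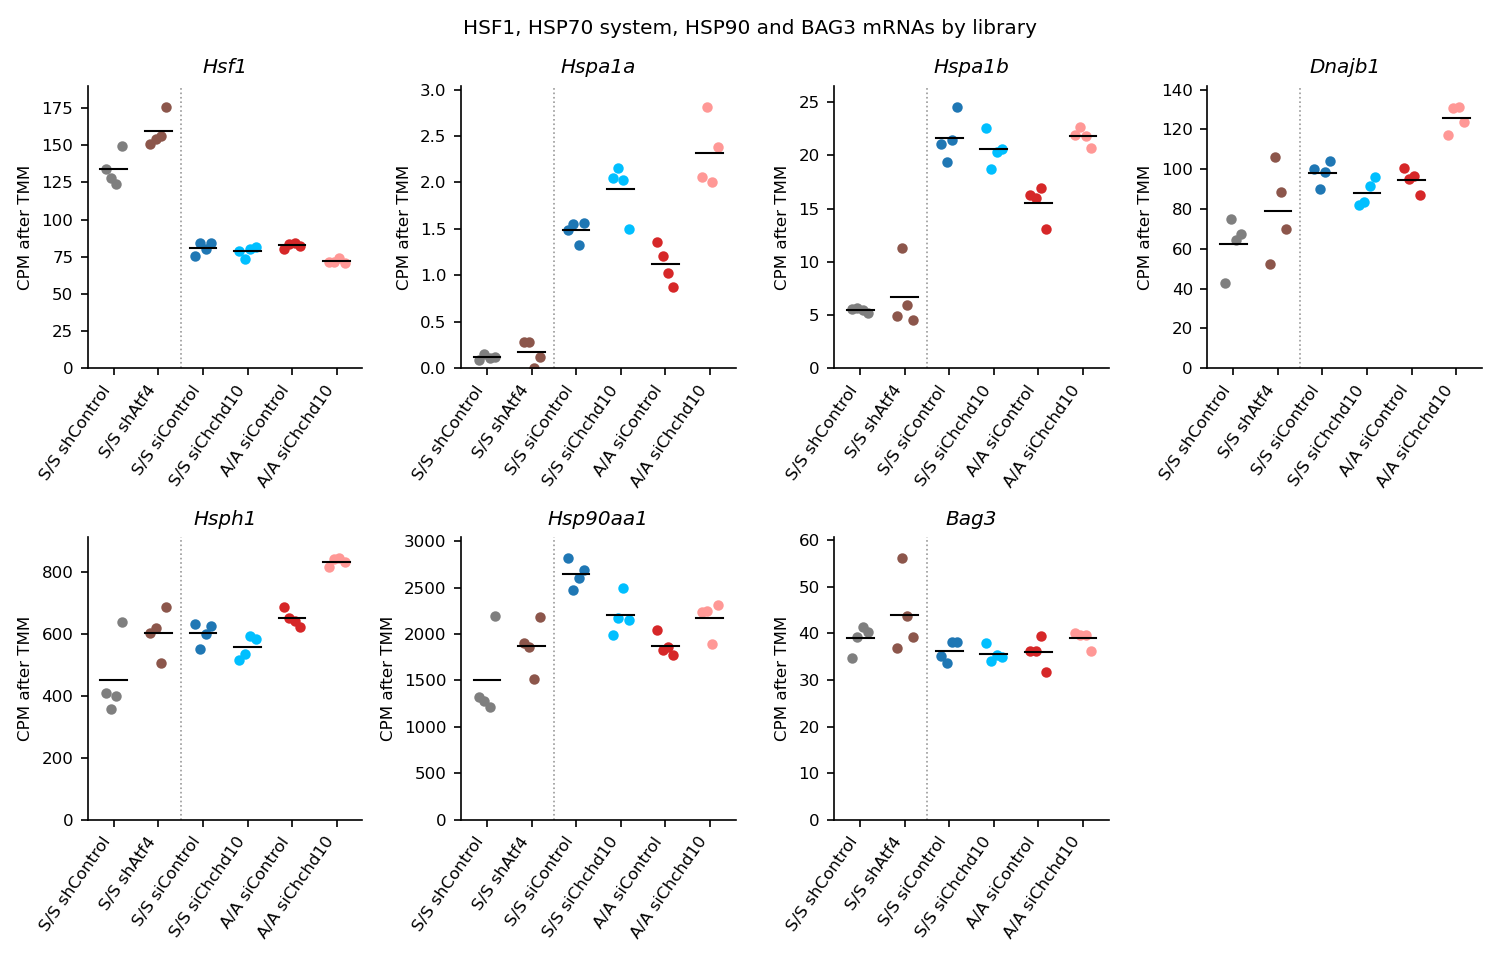
Hsf1, Bag3, Hspa1a, Hspa1b, Dnajb1, Hsph1 and Hsp90aa1 in CPM, 1 point per library (4 per group) with a bar at the group mean; a dotted line separates the 2 tables. In A/A siChchd10 all 4 libraries of Dnajb1 and Hsph1 lie above all 4 of A/A siControl.

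The inducible chaperones were higher after Chchd10 knockdown in A/A cells. Of the 10 members 7 rose, namely Hspb1, Cryab, Hspa1a, Hspa1b, Dnajb1, Hsph1 and Hsp90aa1, while Hsf1 and Hspb8 fell and Bag3 was not called. In the same comparison 26.5% of 18138 genes were called higher and 27.2% lower (53.7% in either direction). The median log2 difference was 0.38 over the members and -0.01 over all genes tested.

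Hspb1 went from 34.7, 35.1, 35.3 and 31.7 CPM in A/A siControl to 49.9, 51.4, 49.9 and 49.5 CPM in A/A siChchd10. All treated libraries lay above all controls, a log2 difference of 0.55 ± 0.06 (edgeR adjusted p = 1.01e-08). Counted against Hsf1 within each library, Hspb1 was at 0.675 to 0.723 counts per Hsf1 count after knockdown, above the 0.387 to 0.431 of the controls. Cryab went from 1.97 ± 0.301 to 2.67 ± 0.162 CPM (SD, n = 4), a rise of 0.44 ± 0.13 on the log2 scale (edgeR adjusted p = 0.00412).

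Hspa1a had the largest rise among the members, from 1.36, 1.21, 1.02 and 0.878 CPM to 2.06, 2.81, 2.00 and 2.38 CPM. Its log2 difference was 1.05 ± 0.16 (edgeR adjusted p = 2.84e-06), on 224 and 521 counts in all. Hspa1b, with the same upstream repeat, went from 16.3, 15.9, 16.9 and 13.1 CPM to 21.9, 22.6, 21.9 and 20.7 CPM. Its log2 difference was 0.48 ± 0.07 (edgeR adjusted p = 3.13e-06), and the groups of neither HSP70 gene overlapped. Since the reads of these copies may be split between them, their sum is the firmer value, and it rose by 0.53 (edgeR adjusted p = 4.79e-07). Hspa1a made up 5.70 to 7.72% of the summed counts in A/A siControl and 8.39 to 11.1% in A/A siChchd10.

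Dnajb1, the HSP40 that feeds clients to inducible HSP70, went from 101, 95.2, 96.5 and 86.9 CPM to 117, 131, 131 and 124 CPM. This was a log2 difference of 0.41 ± 0.05 (edgeR adjusted p = 4.63e-07). Hsph1, the HSP110 exchange factor, went from 687, 653, 641 and 624 CPM to 818, 842, 844 and 832 CPM, a difference of 0.36 ± 0.05 (edgeR adjusted p = 5.16e-07). Neither gene's groups overlapped. Hsp90aa1 rose by 0.21 ± 0.07 (edgeR adjusted p = 0.00829), from 2045, 1826, 1859 and 1773 CPM to 2241, 2248, 1889 and 2312 CPM. Its groups did overlap, through replicate 3 of A/A siChchd10.

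Hsf1 fell in the same cells, from 80.3, 83.8, 84.6 and 82.0 CPM to 71.2, 71.1, 74.0 and 71.0 CPM. The log2 difference was -0.20 ± 0.04 (edgeR adjusted p = 0.000133), and no treated library reached the lowest control. Hspb8 fell on 18 and 3 counts in all, a ratio of 0.148 with an exact 95% counting interval of 0.0280 to 0.508. Its edgeR log2 difference of -2.54 ± 0.86 (adjusted p = 0.014) became -1.44 (adjusted p = 0.203) without A/A siControl replicate 1, the library that stood apart above. Without A/A siChchd10 replicate 4 it was -2.01 (adjusted p = 0.064). Bag3 was at 36.2, 36.1, 39.5 and 31.8 CPM before and 40.0, 39.7, 39.7 and 36.2 CPM after knockdown, not called at 0.11 (edgeR adjusted p = 0.0927).

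The same siRNA in S/S cells gave another picture. Of the 10 members, Cryab rose, Dnajb1 and Hsp90aa1 fell and 7 were not called, where 15.0% of 18138 genes were called higher and 13.0% lower (28.0% in either direction). The median over the members was -0.06 and over all genes 0.00 on the log2 scale. Cryab went from 15.4, 12.6, 11.6 and 15.3 CPM to 18.9, 17.3, 20.4 and 20.3 CPM, without overlap (0.49 ± 0.09, edgeR adjusted p = 5.32e-05). Cryab was therefore called higher after Chchd10 siRNA in both genotypes, from very different starting levels.

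Hsp90aa1 went from 2815, 2479, 2606 and 2689 CPM to 1988, 2173, 2492 and 2154 CPM, with overlap in replicate 3 of the treated cells (-0.27 ± 0.07, edgeR adjusted p = 0.00306). Dnajb1 went from 99.9, 89.9, 98.4 and 104 CPM to 82.0, 83.3, 91.7 and 96.0 CPM. Its difference of -0.15 ± 0.05 (edgeR adjusted p = 0.0375) lost the call in 5 of 8 fits that left out 1 library. Hspb1 stayed near its low level at 2.40, 2.35, 2.73 and 1.96 CPM, a difference of 0.12 (edgeR adjusted p = 0.469). Hspb8 was at 4.50, 4.01, 5.13 and 4.95 CPM, all below the S/S siControl libraries, at -0.34 (edgeR adjusted p = 0.0925). Hspa1a differed by 0.38 (0.0729), Hsph1 by -0.11 (0.0845), Hspa1b by -0.07 (0.521), Hsf1 by -0.04 (0.471) and Bag3 by -0.03 (0.744), with edgeR adjusted p in parentheses.

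The difference between the genotypes in the response was tested as an interaction term, the A/A effect minus the S/S effect. It was positive and called for 6 members and negative and called for 1, against 16.7% of 18138 genes called positive and 18.9% called negative (35.6% in either direction). The 6 were Dnajb1 at 0.56 ± 0.08 (edgeR adjusted p = 2.7e-06), Hsph1 at 0.47 ± 0.07 (5.23e-06), Hspa1b at 0.55 ± 0.10 (0.000127), Hsp90aa1 at 0.48 ± 0.09 (0.000252), Hspb1 at 0.43 ± 0.13 (0.00887) and Hspa1a at 0.66 ± 0.23 (0.0222). The Hspa1a call was lost in 2 of 16 fits without 1 library, at 0.58 (edgeR adjusted p = 0.0532) without A/A siControl replicate 4 and 0.56 (0.0606) without A/A siChchd10 replicate 2. The called members span the HSP70, HSP40, HSP110, HSP90 and small heat shock families.

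Hsf1 was the negative call, at -0.16 ± 0.06 (edgeR adjusted p = 0.0333), and it was lost in 11 of 16 fits without 1 library. Cryab showed no called difference in response, at -0.05 (edgeR adjusted p = 0.836), nor did Bag3 at 0.14 (0.169) or Hspb8 at -2.20 (0.0508). In the A/A cells the summed level of 10 immediate early genes, which respond to handling, was 335 to 387 CPM in siControl and 273 to 302 after siChchd10. In S/S cells that sum was 323 to 374 and 353 to 383 CPM. The fibroblast marker sum was 4.98 to 5.74 CPM in A/A siControl and 2.74 to 3.14 in A/A siChchd10, with Col3a1 without a count in both. Leukocyte markers summed to 2.39 to 2.61 and 2.43 to 2.62 CPM in these groups, and endothelial markers to 1.58 to 2.19 and 2.14 to 3.00 CPM. The epithelial marker sum itself was 4400 to 4541 CPM in A/A siControl and 5001 to 5497 in A/A siChchd10, without overlap. RNAs without polyA tails, read as a sign of RNA quality, summed to 4.16 to 7.92 CPM in A/A siControl and 3.89 to 5.19 in A/A siChchd10, with 1 of 5 called higher and 2 lower (median -0.45). The part of these lists in the result was not tested.

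**Figure D4:**
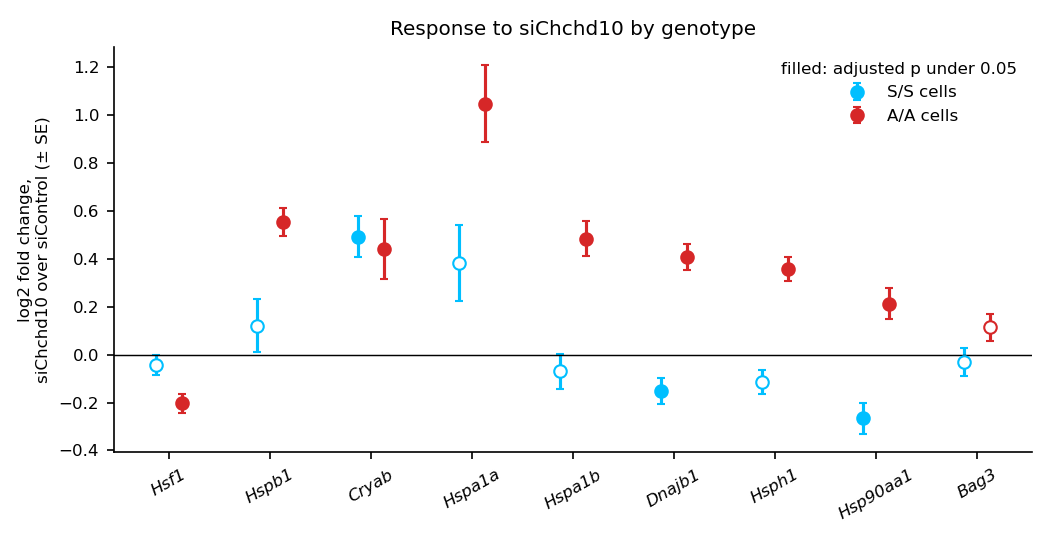
Log2 difference of siChchd10 against siControl in S/S and in A/A cells for the members other than Hspb8. Hspb8 is not drawn because of its few counts in A/A cells. Lines are SE derived from edgeR's F statistic (4 libraries per group), and filled points have an edgeR adjusted p under 0.05. Dnajb1, Hsph1, Hspa1b and Hsp90aa1 lie above 0 in A/A and below 0 in S/S cells, while Cryab lies near 0.49 in S/S and 0.44 in A/A.

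After knockdown in both genotypes, A/A and S/S cells were again far apart in the small heat shock genes. These values share libraries with the comparisons above. Of all 18138 genes tested, 22.8% differed 2-fold or more in this comparison. Hspb1 was 21.3-fold higher in A/A siChchd10 than in S/S siChchd10 (4.41 ± 0.08 on the log2 scale, edgeR adjusted p = 9.55e-27), and Cryab was 7.20-fold lower (-2.84, edgeR adjusted p = 3.37e-20). Hspb8 had 3 counts against 917, a level 346-fold higher in S/S cells with an exact 95% counting interval of 118 to 1682.

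Dnajb1 and Hsph1 were here called higher in A/A cells, at 0.51 (edgeR adjusted p = 3.15e-09) and 0.58 (1.36e-11), and Hsf1 was called lower at -0.13 (0.00673). Bag3 was called higher at 0.13 (edgeR adjusted p = 0.0438), a call lost in 6 of 8 fits without 1 library. In total 4 members were called higher and 3 lower, against 34.7% and 35.8% of all genes (70.5% in either direction). Hsp90aa1, Hspa1b and Hspa1a were not called, at -0.02 (edgeR adjusted p = 0.807), 0.08 (0.32) and 0.26 (0.117).

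After Atf4 knockdown in S/S cells 0 members were called by edgeR without the replicate block or by DESeq2, and at an unadjusted p under 0.05 in edgeR 3 were higher (Hsf1, Hspb1 and Hsph1) and 0 lower. Of the 10, Hspb8 and Hspa1a were too low for the filter on counts, and the other 8 were tested, all with a positive log2 difference and a median of 0.33 beside -0.00 over all genes. Few genes were called at all in this comparison: 0.150% of 14697 higher and 0.388% lower (0.538% in either direction), with 1549 at an unadjusted p under 0.05. Replicates with the same number deviated together in this table, least clearly for number 3. The fit with replicate number as a block is therefore given where it changed a call. The endothelial marker sum was 1.75 to 3.10 CPM in S/S shControl and 0.563 to 1.31 in S/S shAtf4, and its part in the values was not tested.

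Hsph1 was at 410, 356, 398 and 639 CPM in S/S shControl and at 602, 618, 505 and 687 CPM in S/S shAtf4. Every same-numbered pair was higher with shAtf4, yet shControl replicate 4 lay within the treated range. The log2 difference was 0.42 (edgeR adjusted p = 0.467), and 0.45 (adjusted p = 0.0093) with the replicate block. Hsp90aa1 was at 1325, 1274, 1208 and 2192 CPM and then 1901, 1860, 1517 and 2188 CPM, higher in 3 of 4 pairs, with 0.32 (adjusted p = 0.655) and 0.35 (adjusted p = 0.00874) in the 2 edgeR fits. Both genes were thus high in replicate 4 of the control. Without that 1 library they were called at 0.64 (edgeR adjusted p = 0.0244) for Hsph1 and 0.56 (adjusted p = 0.0408) for Hsp90aa1.

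Hsf1 was at 134, 128, 124 and 150 CPM and then 151, 154, 156 and 176 CPM, higher in 4 of 4 pairs. Its difference of 0.25 had an edgeR adjusted p of 0.35, and of 0.00373 with the replicate block. Cryab was at 17.0, 13.1, 19.3 and 31.1 CPM and then 23.7, 25.3, 21.9 and 34.0 CPM, also higher in 4 of 4 pairs. Dnajb1 was at 42.8, 75.1, 64.4 and 67.2 CPM and then 52.3, 106, 88.6 and 69.9 CPM, likewise. Pairs agreed in direction for these 3 genes while the group ranges overlapped. Cryab gave 0.39 (edgeR adjusted p = 0.667) without and 0.43 (adjusted p = 0.0241) with the replicate block, and Dnajb1 0.35 (0.676) and 0.33 (0.00492).

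Hspb1 was at 193, 148, 182 and 173 CPM in S/S shControl and at 285, 286, 188 and 231 CPM in S/S shAtf4, higher in 4 of 4 pairs. It was not called in either edgeR fit, at 0.51 ± 0.15 (adjusted p = 0.229) and at 0.49 with the replicate block (adjusted p = 0.0754). Bag3 at 0.18 (edgeR adjusted p = 0.739) and Hspa1b at 0.28 (0.816) were higher in 3 and 2 of 4 pairs. With the block 5 members were called higher, where 10.1% of the 14697 genes were called higher and 10.1% lower (20.2% or 2969 in either direction, in place of 79). Hspb8, below the filter, had 54 counts in S/S shControl and 9 in S/S shAtf4, lower in 4 of 4 pairs, a ratio of 0.269 with an exact 95% counting interval of 0.117 to 0.550.

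Chaperones and cofactors outside the members were read from lists by function, several of which share genes. The shares to read their counts against are those of all genes: after Chchd10 siRNA 26.5% were called higher and 27.2% lower in A/A cells, 15.0% and 13.0% in S/S cells, and for the interaction 16.7% positive and 18.9% negative. HSF1 core targets outside the members, such as the cochaperones Fkbp4 and Ahsa1 and the HSP40 Dnaja1, were mostly called higher in A/A cells after Chchd10 siRNA. There 17 of 23 rose and 2 fell, with a median of 0.24 beside -0.01 over all genes. The log2 differences in this list reached 1.13. Among the genes eligible for naming, the largest rises were those of the ubiquitin gene Ubb at 0.75, Fkbp4 at 0.50 and Dnaja1 at 0.48. Ier5, a regulator of HSF1, fell by 0.54, and the HSP110 relative Hspa4l fell by 0.14. In S/S cells 0 of the 23 rose and 4 fell by the edgeR test, with a median of -0.05, and at an unadjusted p under 0.05 2 were higher and 7 lower. Of all 18138 genes tested in S/S cells, 6821 were at an unadjusted p under 0.05, in either direction. The interaction was called positive for 15 and negative for 1 of the 23.

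Among HSP90 and its cochaperones 10 of 16 rose and 2 fell in A/A cells after Chchd10 siRNA (median 0.16), with Ahsa1 at 0.42, the kinase loader Cdc37 at 0.34 and the immunophilin Fkbp5 at -0.24. In S/S cells 0 rose and 3 fell by the edgeR test. At an unadjusted p under 0.05 0 were higher and 7 lower there, beside 6821 of all 18138 genes in either direction. Of the cytosolic J proteins, the wider HSP40 family, 8 of 15 rose and 1 fell in A/A cells (Dnaja4 at 0.48, Dnajc2 at 0.33, Dnajb14 at -0.37), whereas 1 rose and 5 fell in S/S cells. The other HSP70 and HSP110 genes split: the constitutive Hspa8 at 0.24, Hspa14 at 0.32 and Hspa13 at 0.31 rose in A/A cells and 4 of 9 fell, with Hspa12a at -0.77. Of 14 TRiC and prefoldin genes, which fold actin and tubulin, 5 rose and 0 fell in A/A cells, a share of higher calls near that of all genes. In these cells 13 of the 14 had a positive log2 difference, and in S/S cells 1 rose and 3 fell. The interaction was called positive for 7 of the 14 and negative for 0, beside 16.7% and 18.9% of all genes.

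The partners of BAG3 in selective autophagy included 7 of 10 called higher and 0 lower in A/A cells, with Map1lc3b at 0.55, the lysosomal Lamp2 at 0.51 and the dynein light chain Dynll1 at 0.39. In S/S cells 3 of these 10 were called higher and 0 lower. Bag3 itself was called in neither genotype. Of 6 other genes of the BAG family and nucleotide exchange 3 rose and 1 fell in A/A cells. Those that rose were Bag2 at 0.40, the exchange factor Hspbp1 at 0.32 and Bag1 at 0.22. In S/S cells 0 of these 6 rose and 2 fell.

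Chaperones of other compartments were also called higher in A/A cells after Chchd10 siRNA. Of 15 endoplasmic reticulum chaperones 15 rose, with a median of 0.33 and P4hb at 0.57, Pdia3 at 0.44 and Dnajb9 at 0.44, and the interaction was called positive for all 15. No promoter of the 13 of them with a sequence held TTCNNGAA or GAANNTTC, beside 14.5% of all genes with a promoter sequence. A repeat was in 5 of 20 HSF1 core targets outside the members and in 2 of 10 mitochondrial chaperones and proteases with a sequence. Hspd1 and Hspe1 were counted in both of these lists. Whether the repeats play a part in the differences was not tested. Of 14 mitochondrial chaperones and proteases 10 rose and 2 fell in A/A cells (median 0.15, Grpel1 at 0.47, Hspe1 at 0.30). In S/S cells 1 endoplasmic reticulum chaperone rose and 1 fell, and 1 mitochondrial gene rose and 3 fell, the HSP70 Hspa9 at -0.35.

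Between genotypes with control siRNA, several cytosolic lists had more genes called lower than higher in A/A cells, where 35.6% of all genes were called higher and 34.7% lower. Of the HSF1 core targets outside the members 14 of 23 were called lower and 5 higher (median -0.28), with Dnaja1 at -0.70. TRiC and prefoldin had 10 of 14 lower and 3 higher, and HSP90 and its cochaperones 9 of 16 lower and 3 higher, with Hsp90ab1 at -0.58 and Cacybp at -0.59. The endoplasmic reticulum list had 8 of 15 called higher and 1 lower. Of the other HSF factors and HSF1 regulators 5 of 6 were called higher, among them Hsf4 at 0.80, Hsf2 at 0.25 and the HSF1-binding Hsbp1 at 0.34. The other 1 was called lower, at -1.76. After Atf4 shRNA 0 genes of these lists were called by edgeR without the replicate block, and at an unadjusted p under 0.05 3 HSF1 core targets (Ahsa1, Fkbp4 and Stip1) were higher and 1 (Sqstm1) lower. Of all 14697 genes tested after Atf4 shRNA, 1549 were at an unadjusted p under 0.05. There 15 of 16 HSP90 and cochaperone genes (median 0.17) and 17 of 23 HSF1 core targets (median 0.12) had positive log2 differences. DESeq2 called 1 of the 16 HSP90 and cochaperone genes and 1 of the 23 HSF1 core targets higher, and 1 of 9 other HSP70 and HSP110 genes lower. Over all genes DESeq2 called 168 higher and 300 lower. With the block, 7 of 16 HSP90 and cochaperone genes, 7 of 23 HSF1 core targets and 6 of 14 TRiC and prefoldin genes were called higher, and 0, 2 and 0 lower, against 10.1% of all genes in each direction. Of the endoplasmic reticulum chaperones 1 of 15 was then called higher and 1 lower, and of the partners of BAG3 0 of 10 higher and 3 lower.

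**Figure D5:**
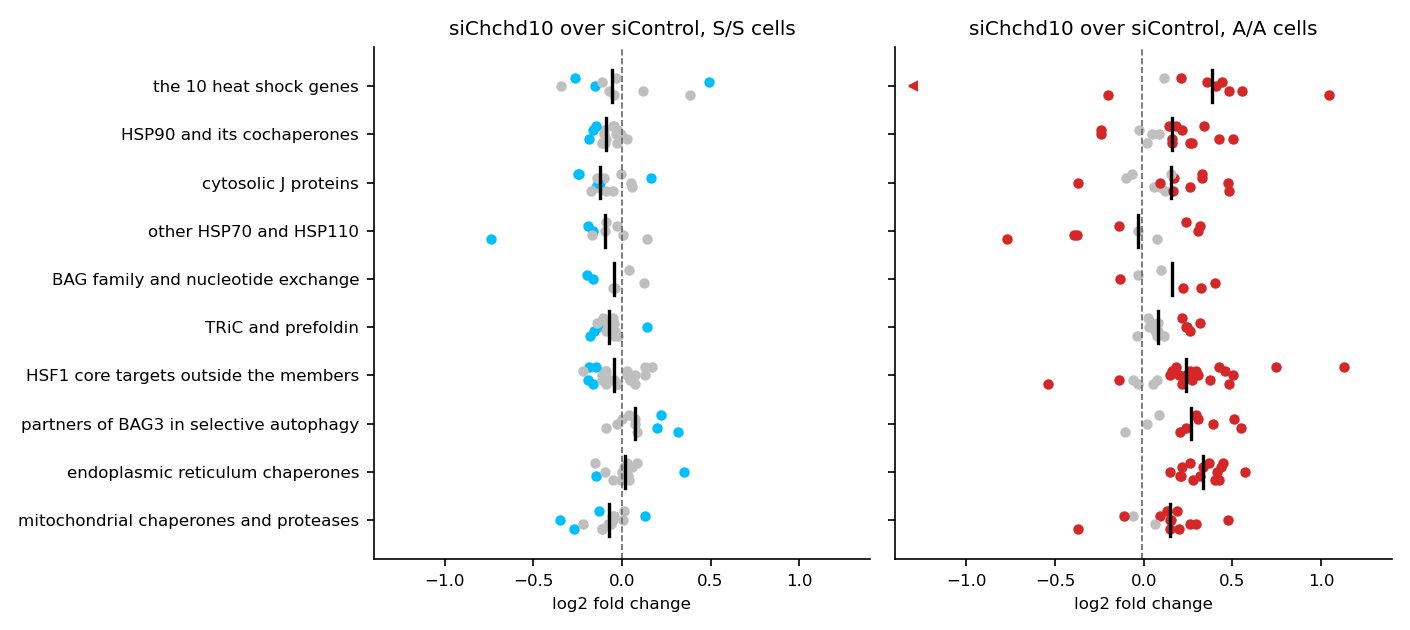
Log2 differences of the members and of other chaperone lists by comparison, 1 point per gene, coloured where the edgeR adjusted p was under 0.05 and grey otherwise; the black bar is the list's median, the dashed line the median of all genes tested, and a triangle a value beyond the axis (Hspb8 at -2.54). All 15 endoplasmic reticulum chaperones are coloured and above 0 in A/A cells after Chchd10 siRNA.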

How the data were processed

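RNA-seq was measured in 24 libraries. The values are raw counts of reads per gene that the authors deposited, 8 shRNA libraries in one table and 16 siRNA libraries in another, and each column was matched to 1 sample by name. Per the labels' protocols, RNA was taken with Trizol and libraries followed a stranded total RNA kit, while the molecule is labelled polyA RNA. The submitters' processing notes name the build mm10 and the tool DESeq2 1.24.0. For the aligner, the counter and the strand setting, a name is not given in the sources used here.

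The members, lists and naming rule were chosen with earlier results of these data known. Each table was scaled alone by TMM to CPM and tested with edgeR 4.0.16 in R 4.3.3 (filterByExpr, robust quasi-likelihood test, 1 term per group, Benjamini-Hochberg over all genes, threshold 0.05), a procedure tested on simulated data. The simulated libraries were drawn independently, so that check does not cover replicates that deviate together. All 10 members and both targets are named. From each list up to 3 genes called with the largest rise and up to 3 with the largest fall are eligible. List genes whose mean log2 CPM lay below 1 were passed over in this choice, so a larger change in a low gene can go unnamed. Alternatives were RLE scaling, no filter, DESeq2 1.42.0, a replicate block, fewer libraries and leaving out each library, with block counts for the lists added after seeing the data. Same-numbered shRNA libraries deviated together (r of 0.723, 0.606, 0.447 and 0.899 over 11786 genes), so levels were also compared by pairs of that number. The highest r between unlike numbers was 0.516, above that of number 3, so the pairing was less clear there. The main edgeR fit has no replicate block and leaves this pairing out, and the fit with the block is an alternative. Gene positions and exon lengths came from GENCODE annotation of GRCm38, the assembly that mm10 names. Genes with low counts have wide counting error: intervals cover that error only.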

Additional observations from a re-analysis of the deposited data

Results flagged for a closer look

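Over 57 sets of a member and a group of 4 libraries, 6 held 1 library far from the other 3, a gap that chance gives in about 5% of sets. Hsp90aa1 was at 2192 CPM in S/S shControl replicate 4 against 1208 to 1325 in the others, and at 1889 CPM in A/A siChchd10 replicate 3 against 2241 to 2312. Hspb1 was at 31.7 CPM in A/A siControl replicate 4 against 34.7 to 35.3, and Hspb8 at 7.04 CPM in S/S siControl replicate 4 against 5.36 to 5.58. Bag3 was at 36.2 CPM in A/A siChchd10 replicate 4 against 39.7 to 40.0, and Hsf1 at 74.0 CPM in A/A siChchd10 replicate 3 against 71.0 to 71.2.

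The response to Chchd10 siRNA differed between A/A and S/S cells, by the edgeR interaction term, for 7 members. The log2 difference in response was 0.43 for Hspb1, 0.66 for Hspa1a, 0.55 for Hspa1b, 0.56 for Dnajb1, 0.47 for Hsph1, 0.48 for Hsp90aa1 and -0.16 for Hsf1.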

How the results depend on the processing

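Of 829 values of members under the alternatives, 748 kept their direction and side of the threshold, 45 lost a call, 25 gained one and 11 changed sign, all 11 when 1 library was left out. With Atf4 shRNA, members called higher numbered 0, but 5 with the replicate block, 4 without both replicate 4 libraries and 0 to 2 with 1 library left out. Genes called there numbered 79, but 2969 with the block, 468 by DESeq2, 1726 without both replicate 4 libraries and 13 to 536 with 1 left out. After Chchd10 siRNA in A/A cells, members lower numbered 1 when only the 8 libraries compared were fitted, and with 1 library left out 7 to 8 were higher and 1 to 2 lower. In S/S cells these leave-one-out counts were 1 to 2 higher and 1 to 3 lower. For the interaction they were 5 to 7 and 0 to 2, with 0 lower under RLE scaling. Between genotypes with siControl, members higher numbered 1 under RLE scaling, the replicate block and DESeq2, where Hsph1 lost its call, and leave-one-out gave 1 to 2 higher and 4 to 5 lower. With siChchd10 it gave 3 to 4 and 2 to 3.

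Values that changed sign ran, with 1 library left out, from -0.10 to 0.43 for Hspa1b after Atf4 shRNA, -0.0956 to 0.0761 for the Cryab interaction, -0.00187 to 0.05 for Hsf1 and -0.0757 to 0.0415 for Bag3 between genotypes with siControl, and -0.0504 to 0.0587 for Hsp90aa1 with siChchd10. Hspb8 gained a call in S/S cells without the filter (edgeR adjusted p = 0.0368) and in the 8 libraries alone (0.0225), and in the interaction without the filter (0.017) and by DESeq2 (0.0303). The Hsf1 interaction was not called under RLE scaling (adjusted p = 0.0626), without the filter (0.101) or by DESeq2 (0.052). The cause of these changes was not tested. In the siRNA table same-numbered libraries correlated at -0.294 to 0.454, so numbers did not pair them, and the replicate block there changed the call of Hsph1 between genotypes and of no other member. Without TMM scaling, 60 of 60 group levels moved by less than 1 SD. Hspb8 in A/A cells and Hspa1a in the shRNA table rest on few counts.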

Other observations

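Library-to-library variation within groups was described over the 16 siRNA libraries, after subtracting each group's mean log2 CPM, with no test since libraries share depth and composition. The genes most like Dnajb1 in that variation were Sdf2l1, an endoplasmic reticulum cofactor, at r = 0.956, Noc2l at 0.948, Rbm10 at 0.947, Ncaph2 at 0.946 and Hgh1 at 0.932. Those most like Hspb1 were Gm7045 at 0.837, Lacc1 at 0.806, Rusf1 at 0.799, Srr at 0.767 and Ppcdc at 0.757. Among the members Dnajb1 varied with Hsph1 at 0.878, Cryab at 0.621 and Hspa1b at 0.546, and with Hspb1 at -0.211.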
